A study of Mus musculus with 6 samples.

Results

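The surrogate light chain genes Igll1, Vpreb1, Vpreb2 and Vpreb3 were measured in reporter-positive B lineage cells of the small intestinal lamina propria and of the bone marrow. They were taken by gene symbol from the platform's gene table, which gave each of the 4 genes 1 probe set with no second symbol. These are 4 of the 23410 probe sets of the array that carry a gene symbol. Cells were sorted for a green fluorescent reporter of Rag2 from RAG2-GFP/129Sve mice aged 17 to 25 days, and both tissues came from such mice. Per the labels, each experiment pooled 8 to 12 mice, and each tissue gave 3 independent pools with 1 array each. Lamina propria (LP) and bone marrow (BM) thus differ by tissue, with strain, age range and sort marker in common. The series title gives the comparison of expression between these tissues as its subject. The reporter marks cells with present or recent Rag2 expression, so a pool may hold several stages.

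The surrogate light chain stands in for a light chain before any light chain gene has been rearranged. Vpreb1 and Vpreb2 encode its variable-like part and Igll1 encodes its constant-like part, lambda 5. With the immunoglobulin mu heavy chain and the signalling chains Cd79a and Cd79b they form the pre-B cell receptor, which tests the new heavy chain at the surface of large pre-B cells. Vpreb3 is a related protein that binds newly made mu chains inside early B cells and is not part of the classical surrogate light chain. Igll1 and both classical Vpreb genes are shut off as cells leave the pre-B stage.

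On GRCm38.p6, RefSeq places Igll1 at chr16:16860671-16863985 and Vpreb1 at chr16:16868401-16869255, with 4.4 kb between them. Vpreb2 lies at chr16:17979445-17981274, 1110.2 kb from Vpreb1, and Vpreb3 lies on another chromosome, at chr10:75943024-75949657. The 250 bases before 1 annotated transcript start per gene, from RefSeq on GRCm38.p6, are shown because these genes are known targets of early B cell factors. They also show how alike the copies Vpreb1 and Vpreb2 are there. Likeness of these bases does not show how far the probe sets tell the 2 transcripts apart. For Vpreb2 and Vpreb3, which have several RefSeq transcripts, the start used lies inside the gene span given, so that other annotated transcripts begin upstream of the window. Capitals mark matches on either strand to the motifs named in the paragraph that follows.
Igll1, chr16:16863986-16864235, minus strand: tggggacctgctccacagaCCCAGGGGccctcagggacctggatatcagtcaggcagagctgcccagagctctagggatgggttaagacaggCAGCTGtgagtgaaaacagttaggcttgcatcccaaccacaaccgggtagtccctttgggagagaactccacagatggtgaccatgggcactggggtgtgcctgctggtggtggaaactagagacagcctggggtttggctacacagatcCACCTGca
Vpreb1, chr16:16869256-16869505, minus strand: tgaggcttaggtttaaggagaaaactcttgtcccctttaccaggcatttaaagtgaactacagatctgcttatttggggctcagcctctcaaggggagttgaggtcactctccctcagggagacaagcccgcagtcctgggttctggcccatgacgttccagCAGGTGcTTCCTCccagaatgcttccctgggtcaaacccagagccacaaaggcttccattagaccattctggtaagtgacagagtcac
Vpreb2, chr16:17980315-17980564, plus strand: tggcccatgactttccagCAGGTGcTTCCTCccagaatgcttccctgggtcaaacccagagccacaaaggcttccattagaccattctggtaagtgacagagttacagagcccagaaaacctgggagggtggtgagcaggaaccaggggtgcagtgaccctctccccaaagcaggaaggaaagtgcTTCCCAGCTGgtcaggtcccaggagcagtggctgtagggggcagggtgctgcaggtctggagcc
Vpreb3, chr10:75948050-75948299, plus strand: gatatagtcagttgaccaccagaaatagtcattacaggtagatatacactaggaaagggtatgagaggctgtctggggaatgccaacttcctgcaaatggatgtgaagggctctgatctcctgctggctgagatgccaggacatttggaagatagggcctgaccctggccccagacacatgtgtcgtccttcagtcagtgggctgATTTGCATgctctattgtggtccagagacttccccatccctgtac

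Over their full windows of 250 bases before and 50 after the start, the end of the Vpreb1 window and the beginning of the Vpreb2 window were nearly the same sequence. They matched at 153 of 156 bases, or 98.1%, with the start used for Vpreb2 lying 144 bases further along. The shared stretch holds in both genes an E-box CAGGTG, the kind of site bound by E2A (Tcf3), followed by a match to the Ets and PU.1 core GAGGAA on the opposite strand. The E-box begins 88 bases before the start in Vpreb1 and 232 bases before it in Vpreb2. Igll1 held CAGGTG on the opposite strand 8 bases before its start, the E-box CAGCTG at 158 bases and the EBF core CCCNNGGG at 231 bases. Vpreb2 also held CAGCTG at 60 bases, overlapping a match to the Ikaros motif TGGGAA on the opposite strand. These 2 matches lie past the stretch shared with the Vpreb1 window, so the corresponding bases of Vpreb1 were not searched. Vpreb3 held none of these, and was the member with the octamer ATGCAAAT, on the opposite strand 45 bases before its start. The TATA box TATAAA was in none of the 4 windows. Among all 32851 windows of this length in the table, 17.2% hold CAGGTG, 13% CAGCTG, 11.8% the EBF core, 21.6% the Ikaros motif, 23.3% the Ets and PU.1 core, 1.6% the octamer and 12.4% the TATA box. CAGCTG and the EBF core read alike on both strands. A match is a description of these letters and not a bound site.

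All 4 genes were bright in both tissues, and none differed between lamina propria and bone marrow by more than the spread between pools. Log2 differences, lamina propria minus bone marrow, lay between -0.17 and 0.31, and the values of the tissues overlapped for each gene. On every array the 4 probe sets stood above 94% or more of all probe sets with a symbol. That is a position on the array and gives no order of transcript amounts among the genes, since probe sets differ in response. In bulk samples, fewer cells of a type and less RNA per cell cannot be told apart.

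Igll1 (probe set 10438060) had log2 RMA values of 10.61, 11.21 and 10.26 in lamina propria pools 1, 2 and 3, and 11.07, 11.43 and 9.59 in bone marrow pools 1, 2 and 3. All 3 lamina propria values fell inside the range of the marrow values, whose lowest array was pool 3. Means were 10.69 ± 0.48 in lamina propria and 10.70 ± 0.97 in bone marrow (SD, n = 3 each), a log2 difference of 0.00 with a 95% interval of -1.18 to 1.18. The interval allows anything from 0.44-fold to 2.27-fold, so for Igll1 the arrays bound a tissue difference only loosely. The adjusted p in limma was 0.999.

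Vpreb1 (probe set 10438064) gave the tightest values of the 4 genes. They were 11.92, 11.71 and 11.67 in lamina propria pools 1, 2 and 3, and 11.83, 11.79 and 11.85 in the bone marrow pools. The marrow values lay close together, inside the lamina propria range. The means of 11.77 ± 0.14 and 11.82 ± 0.03 (SD, n = 3 each), lamina propria first, differed by -0.06, with a 95% interval of -0.50 to 0.38, or 0.709-fold to 1.3-fold, and limma gave an adjusted p of 0.842. The highest values on the arrays were 13.38 to 13.51, and whether a probe set this bright responds less than in proportion was not tested.

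Vpreb2 (probe set 10434128) had 9.51, 9.87 and 9.06 in lamina propria pools 1, 2 and 3, and 9.11, 9.39 and 9.01 in the bone marrow pools. Lamina propria pools 1 and 2 lay above all marrow pools, and pool 3 lay inside the marrow range. Means were 9.48 ± 0.41 in lamina propria and 9.17 ± 0.20 in bone marrow (SD, n = 3 each). The difference was 0.31 (95% interval -0.31 to 0.93, limma adjusted p = 0.473). Since Vpreb1 and Vpreb2 are close copies, each probe set may also take up transcripts of the other gene. Probe sequences were not used here, and how the 2 signals divide between the genes was not tested.

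Vpreb3 (probe set 10364109) had 9.79, 10.85 and 9.20 in lamina propria pools 1, 2 and 3, and 10.24, 10.66 and 9.46 in the bone marrow pools. The lamina propria values spanned more than the marrow values, with pool 2 above them all and pool 3 below them all. Means were 9.95 ± 0.84 in lamina propria and 10.12 ± 0.61 in bone marrow (SD, n = 3 each), and the difference was -0.17 (95% interval -1.30 to 0.96, limma adjusted p = 0.813).

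**Figure D1:**
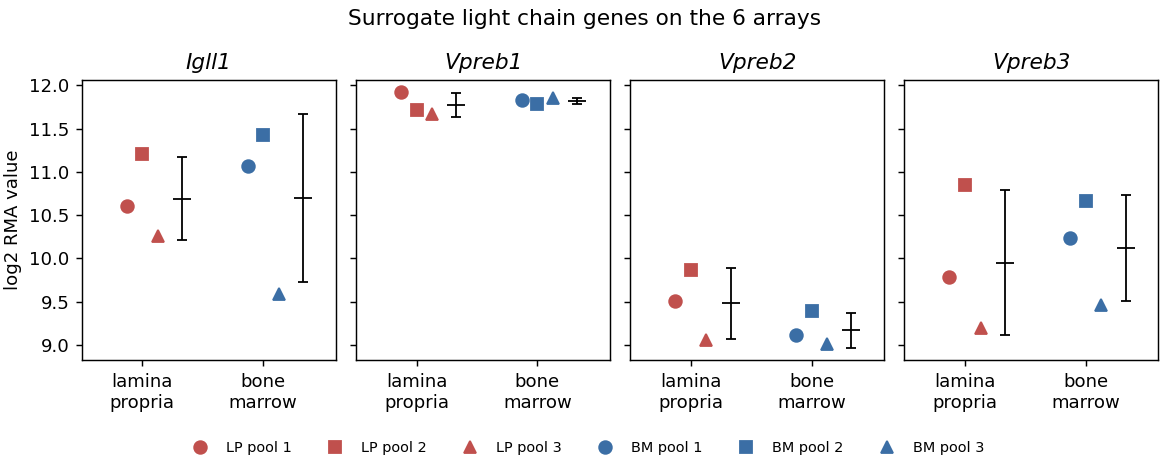
Log2 RMA value (vertical axis) of Igll1, Vpreb1, Vpreb2 and Vpreb3 in each of the 3 lamina propria (LP, red) and 3 bone marrow (BM, blue) pools, with symbols for the pool number and black bars for mean ± SD. The tissues overlap for each gene, and for Igll1, Vpreb2 and Vpreb3 pool 2 is highest and pool 3 lowest in both tissues, while Vpreb1 stays between 11.67 and 11.92.

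Limma called 0 of the 4 members, beside 0% of all 23410 probe sets called higher and 0% called lower at an adjusted p under 0.05. At an unadjusted p under 0.05, 1226 probe sets were higher and 1834 lower, and none of the members was among them (p from 0.279 to 0.997). With array weights limma called 11.9% of probe sets higher and 9.68% lower, and with an intensity trend and robust variances 0% higher and 0.0128% lower, each time with 0 of the 4 members. None of the 4 members was without overlap between the tissues, where 21.5% of all probe sets were. With 4 members these shares set nothing apart.

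Over the arrays, Igll1, Vpreb2 and Vpreb3 were ordered alike. In lamina propria and in bone marrow, pool 2 had the highest value of each of these 3 genes, pool 1 the middle one and pool 3 the lowest. Vpreb1 had pool 1 highest in lamina propria and pool 3 highest in bone marrow. The pool numbers are not known to pair the tissues. The ranges within a tissue were 0.95 in lamina propria and 1.84 in bone marrow for Igll1, 0.81 and 0.38 for Vpreb2, and 1.65 and 1.20 for Vpreb3, each as large as or larger than the tissue difference of that gene. As a measure of likeness, the root mean square difference of the values after centring each gene on its mean over the 6 arrays was 0.317 for Igll1 and Vpreb3, the most alike pair. It was 0.644 for Igll1 and Vpreb1, which are neighbours on the chromosome, and 0.322 for the close copies Vpreb1 and Vpreb2.

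No pair of members was shown to differ unequally between the tissues. Within each array the log2 ratio of 2 members was taken, and its mean in lamina propria was set against that in bone marrow for the 6 pairs. The differences of these ratios ran from -0.37 for Vpreb1 over Vpreb2 to 0.48 for Vpreb2 over Vpreb3. The log2 ratio of Vpreb2 over Vpreb3 was -0.28, -0.98 and -0.14 in lamina propria pools 1, 2 and 3 and -1.13, -1.27 and -0.45 in the bone marrow pools, with overlap. The exact two-sided permutation p was 0.2 for this pair and 0.2 to 1 over the pairs (adjusted p from 0.9 to 1), where 3 against 3 arrays cannot go below 0.1.

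The lamina propria arrays were not alike as a whole. Across probe sets, lamina propria pool 3 resembled the marrow arrays (r from 0.956 to 0.971). Pools 1 and 2 resembled each other less closely (r = 0.883) and the remaining arrays less still (r from 0.795 to 0.861). In pools 1 and 2, probe sets with a marrow mean of 8 to 9 had median differences of -1.31 and -1.49 from that mean, while those at 4 to 5 had 0.52 in both. In pool 3 these medians were -0.05 and 0.00. All 6 arrays had medians of 5.34 to 5.48. Precision is limited by their number. The members are therefore set beside other probe sets of the same marrow level.

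Vpreb2 stood above most probe sets of its level in the 2 shifted pools. It lay 0.34 and 0.70 above its marrow mean in lamina propria pools 1 and 2, where the 775 other probe sets within 0.5 of its marrow level had medians of -0.94 and -1.08 and upper quartiles of 0.04 and 0.05. In pool 3 it lay at -0.11, beside a median of 0.01 and quartiles of -0.34 and 0.28. Igll1 lay at -0.08, 0.51 and -0.44 in lamina propria pools 1, 2 and 3, beside medians of -0.08, -0.08 and 0.10 for the 346 probe sets near its level. Vpreb3 lay at -0.33, 0.73 and -0.92, beside medians of -0.19, -0.21 and 0.11 for 478 probe sets. Vpreb1 lay at 0.10, -0.11 and -0.16, beside medians of 0.01, -0.05 and 0.01 for 185 probe sets. In pool 2, Igll1 and Vpreb3 also lay above the upper quartiles of probe sets at their level, 0.30 and 0.36. In pool 3, Igll1, Vpreb1 and Vpreb3 lay below the lower quartiles of theirs, -0.06, -0.06 and -0.12. These are descriptions with no test.

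**Figure D2:**
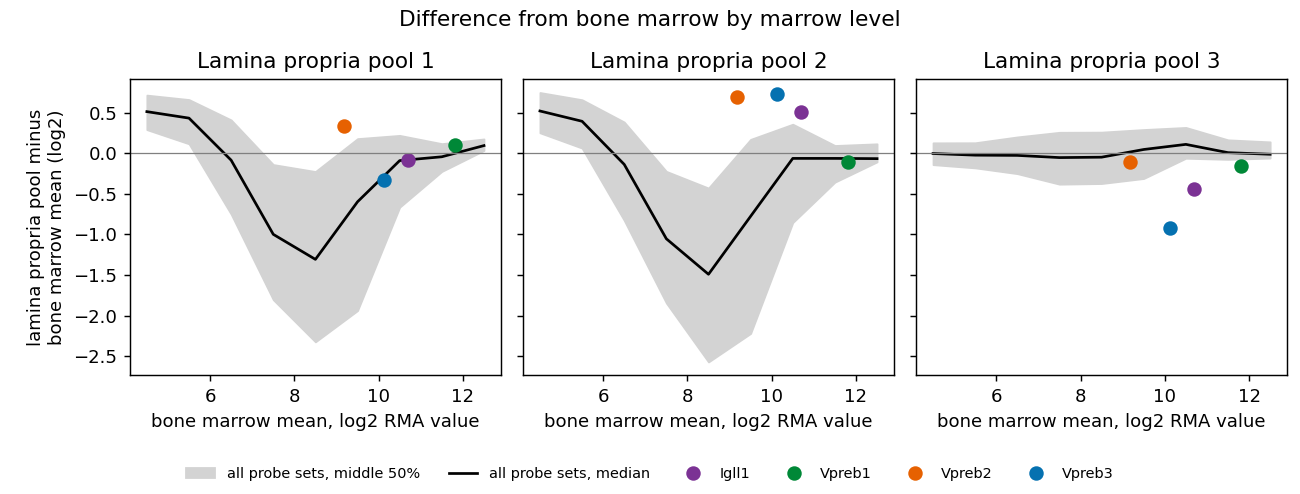
Difference of each lamina propria pool from the bone marrow mean (vertical axis, log2) against the bone marrow mean (horizontal axis, log2 RMA value), with the median (black line) and the range between the quartiles (grey) of all probe sets in bins 1 unit wide and the 4 members as coloured points. In pool 1 Vpreb2 (0.34) lies above the grey band, in pool 2 Vpreb2 (0.70), Igll1 (0.51) and Vpreb3 (0.73) do, and in pool 3 Igll1 (-0.44), Vpreb1 (-0.16) and Vpreb3 (-0.92) lie below it.

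Without lamina propria pool 3, limma called 20.5% of probe sets higher and 11.1% lower in lamina propria, and still 0 of the 4 members. Vpreb2 came nearest, at 0.52 with an adjusted p of 0.092, and Igll1, Vpreb1 and Vpreb3 had adjusted p of 0.778, 0.969 and 0.743. In pool 3 alone against the 3 marrow arrays, which assumes that the lone array varies like those of the marrow, Igll1 differed by -0.44, Vpreb1 by -0.16, Vpreb2 by -0.11 and Vpreb3 by -0.92, again with no call. Igll1 also leaned on marrow pool 3, without which its difference was -0.56.

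Most other genes of the same stages had negative differences, though none passed the test. Rag2, a subunit of the recombinase and the gene whose reporter was used for the sort, averaged 5.83 ± 0.21 in lamina propria and 8.18 ± 0.37 in bone marrow (SD, n = 3 each), a difference of -2.35 (limma adjusted p = 0.165). The other subunit Rag1 differed by -1.05, Dntt, which adds nucleotides at the joints, by -0.51, and the interleukin 7 receptor chain Il7r by -2.46, with limma adjusted p of 0.331, 0.374 and 0.312. None of these passed over all probe sets, though every lamina propria pool lay below every marrow pool for each of them. Without lamina propria pool 3, Rag2 (-2.47), Rag1 (-1.30) and Il7r (-2.84) passed, with limma adjusted p of 0.00912, 0.012 and 0.0305. So did Cd93 (-1.85, limma adjusted p = 0.015), named after its value was seen. These were 4 of the 18 measured stage genes, beside 20.5% of all probe sets called higher and 11.1% lower. Rag2, Rag1 and Il7r also passed with array weights, which were 0.16 for lamina propria pool 3 and 0.69 to 2.75 for the other arrays. Passing with array weights is thus, here and below, no separate support beside leaving pool 3 out. Rag2 also passed when arrays were centred on the 75th percentile, at -2.16 (limma adjusted p = 0.0477). Rag2 is of the level at which pools 1 and 2 were shifted downward as a whole. In pool 3, where that shift was -0.05, Rag2 was 6.06, below all marrow pools. The part of that shift in the difference of Rag2 was not tested. Of 18 measured pro-B and pre-B stage genes, 15 had a negative difference, 3 a positive one of up to 0.16 (Kit, Flt3 and Cxcr4, named after their values were seen), and 7 lay lower without overlap, against 7.24% of all probe sets. The median of these 18 genes was -0.52, against 0.22 over all probe sets. This list and these genes were chosen with earlier results of these data known.

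Set against Rag2 within each array, all 4 members were higher in lamina propria than in bone marrow. Since Rag2 itself differed by -2.35 without overlap, a probe set with little tissue difference would also stand higher against it. The share of all probe sets that do was not computed. The log2 value of Vpreb1 exceeded that of Rag2 by 6.26, 5.96 and 5.60 in lamina propria pools 1, 2 and 3, against 4.07, 3.31 and 3.56 in the bone marrow pools. For Igll1 the excess was 4.95, 5.46 and 4.20 in the lamina propria pools, against 3.31, 2.94 and 1.31 in the bone marrow pools. No lamina propria pool overlapped with the marrow in either. The difference between the tissues in these log2 ratios was 2.30 for Vpreb1, 2.35 for Igll1, 2.66 for Vpreb2 and 2.18 for Vpreb3. Each had an exact two-sided permutation p of 0.1, the smallest that 3 against 3 arrays can give (adjusted p = 0.133 over 16 ratios). Rag2 was chosen with its values known, so these p-values give no support beyond the differences of the single genes.

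Against Il7r the ratios were likewise higher in each lamina propria pool for all 4 members, by 2.29 to 2.77. Against Rag1 and Dntt, this held for Vpreb1 (by 0.99 and 0.46) and Vpreb2 (by 1.36 and 0.82), each with an exact p of 0.1. Igll1 and Vpreb3 overlapped there, with differences of 1.05 and 0.88 against Rag1 and 0.51 and 0.34 against Dntt (exact p from 0.3 to 0.5). With 1 array left out, the difference against Rag1 ran from 0.43 (without marrow pool 3) to 1.515 (without lamina propria pool 3) for Igll1, and from 0.28 to 1.499 (without lamina propria pools 2 and 3) for Vpreb3. That of Igll1 against Dntt ran from 0.01 to 0.82 (without marrow pools 3 and 2). These 16 ratios were added with earlier results known, so their p-values are no separate support, and a ratio by itself shows only unequal change. In the values themselves, Rag2, Il7r, Rag1 and Dntt differed by -2.35, -2.46, -1.05 and -0.51, each lower in every lamina propria pool. A probe set with little tissue difference would thus also tend to stand higher against each of them. The share of all probe sets that do was not computed. The members differed by -0.17 to 0.31, with overlap.

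**Figure D3:**
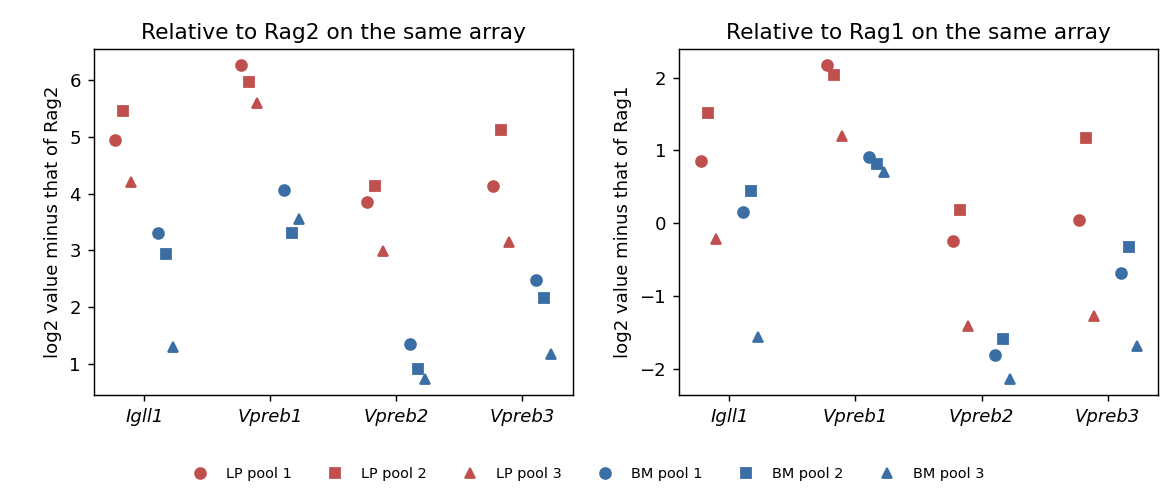
Log2 value of each member minus that of Rag2 (left) or Rag1 (right) on the same array (vertical axes), for the 3 lamina propria (LP, red) and 3 bone marrow (BM, blue) pools, with symbols for the pool number. Relative to Rag2 all lamina propria points of each gene lie above its marrow points. Relative to Rag1 this holds for Vpreb1 and Vpreb2, while Igll1 and Vpreb3 overlap. Rag2 and Rag1 themselves were lower in every lamina propria pool than in every marrow pool.

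The partners of the surrogate light chain in the pre-B cell receptor did not pass the test either. Ighm, the mu heavy chain, had 6.05, 5.71 and 7.25 in lamina propria pools 1, 2 and 3, against 6.93, 6.60 and 6.48 in the bone marrow pools. That is a difference of -0.33 for the brightest of its 3 probe sets, with pools 1 and 2 below the marrow range and pool 3 above it. Cd79a and Cd79b, the signalling chains, differed by 0.04 and -0.52, with Cd79b at 7.22 in lamina propria pool 2 and at 9.43 to 10.18 on the other 5 arrays. The kinase Syk differed by -0.41, the adaptor Blnk by -0.23, protein kinase C beta (Prkcb) by -0.50 and the phosphoinositide 3-kinase adaptor Pik3ap1 by -1.47, with limma adjusted p from 0.374 to 0.605.

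Btk, the kinase downstream of the receptor, had 4.91, 5.09 and 8.17 in lamina propria pools 1, 2 and 3, against 7.75, 7.93 and 8.51 in the bone marrow pools. Pools 1 and 2 thus stood far below the marrow and pool 3 among it, for a difference of -2.0 (limma adjusted p = 0.374). Btk has a marrow mean of 8.06. All probe sets at 8 to 9 had median differences of -1.31 and -1.49 in pools 1 and 2. In pool 3 their median was -0.05. The part of that shift in the difference of Btk was not tested. Without pool 3, Btk (-3.06), Pik3ap1 (-2.24) and Ighm (-0.79) passed, with limma adjusted p of 0.0074, 0.00752 and 0.0427. So did Vav1 (-1.94), Plcg2 (-1.20) and Grb2 (1.32), named after their values were seen, with limma adjusted p of 0.00901, 0.0284 and 0.0476. With all 6 arrays, 0 of the 17 measured partners and proximal signalling genes passed, and 11 had a negative difference. The median was -0.33, or -0.73 without lamina propria pool 3 and -0.03 without pool 2. By pool the median was -0.37, -0.84 and 0.29 in lamina propria pools 1, 2 and 3. The listed gene Lyn was not analysed here.

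Transcription factors known to act on the surrogate light chain genes did not pass either. Ebf1, which activates Igll1 and Vpreb1 with E2A, averaged 10.52 ± 0.13 in lamina propria and 10.74 ± 0.23 in bone marrow (SD, n = 3 each). Its difference of -0.22 (95% interval -0.72 to 0.27) had a limma adjusted p of 0.504. Tcf3, the gene of E2A, differed by 0.08, Pax5 by -0.62, and Lef1, a factor of early B cells, by -0.22. With 1 array left out, Pax5 ran from -1.17 (without marrow pool 3) to -0.02 (without lamina propria pool 1) and Lef1 from -0.52 to -0.03 (without marrow pools 3 and 2). Ikzf1 (Ikaros) and Ikzf3 (Aiolos), which help to shut Igll1 off, differed by -0.36 and -1.10, and Irf4, which raises both of them in pre-B cells, by 0.08.

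Ikzf3 had 5.83, 5.47 and 8.65 in lamina propria pools 1, 2 and 3, against 7.69, 6.51 and 9.04 in the bone marrow pools, so the spread within each tissue exceeded the difference. Of 17 measured factors 0 passed, 10 had a negative difference, and 1 lay higher and 1 lower without overlap, against 14.3% and 7.24% of all probe sets. Their median was -0.22. The factor lower without overlap was Tcf12, a partner of E2A named after its value was seen, at -1.85 (limma adjusted p = 0.363). It had 6.15, 6.26 and 8.14 in lamina propria pools 1, 2 and 3, against 8.87, 8.49 and 8.74 in the bone marrow pools. Without lamina propria pool 3, Tcf12 (-2.50) and Bach2 (-1.48) passed, with limma adjusted p of 0.00569 and 0.0274, and Tcf12 also with array weights (-2.34). In the fit without pool 3, 2 of the 17 factors passed, beside 20.5% of all probe sets called higher and 11.1% lower. Tcf12 and Bach2 have marrow means of 8.70 and 7.89, levels at which pools 1 and 2 were shifted downward as a whole. The part of that shift in their differences was not tested.

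**Figure D4:**
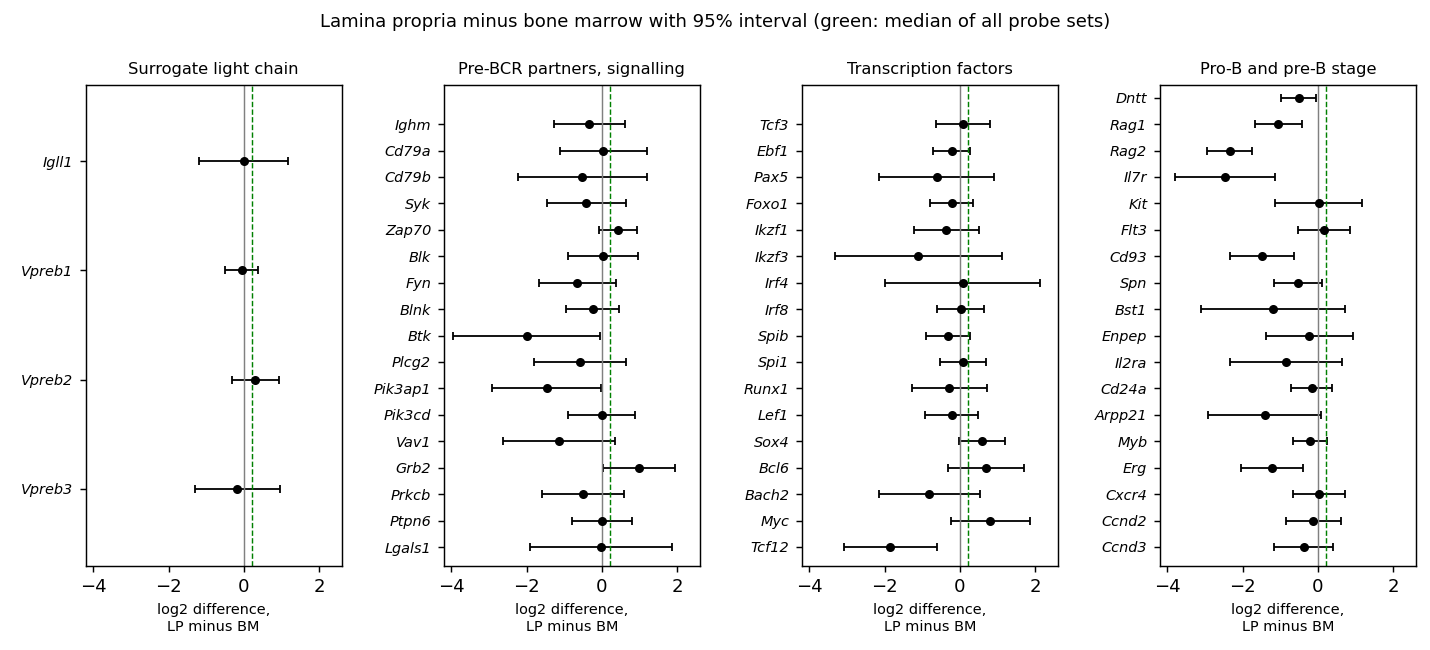
Log2 difference, lamina propria minus bone marrow (horizontal axis), with its 95% interval from limma for the 4 surrogate light chain genes and for 3 lists of related genes, 1 row per gene. The grey line marks 0 and the green dashed line the median of all probe sets, 0.22. The intervals of all 4 members include 0. Those of Rag1, Rag2, Dntt, Il7r, Cd93, Erg, Btk, Pik3ap1 and Tcf12 lie below it, and that of Grb2 lies above it. No gene passed after adjustment.

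Genes of later stages, at which the surrogate light chain is normally off, had mean log2 values of 6.30 to 6.40 on the lamina propria arrays and 5.94 to 6.22 on the marrow arrays. Of 9 measured genes of light chains and later B stages 0 passed, 7 had a positive difference and the median was 0.31, against 0.22 over all probe sets. Cd72, a coreceptor present from early stages, differed by 0.32, the BAFF receptor Tnfrsf13c by 0.31, the quiescence factor Klf2 by 0.56 and the homing receptor Ccr7 by 0.00. The listed light chain constant region genes and Ighd were not analysed here. Of 5 genes of terminal B stages 0 passed, with Igha, the alpha heavy chain, at -1.31, Xbp1 at 0.29, the plasma cell surface marker Sdc1 at -0.03 and Prdm1 at 0.62. Jchain, the joining chain of secreted IgA and IgM and the other gene of the list, was named after its value was seen. It had the largest difference of the 5, at 1.41 (limma adjusted p = 0.293), with 4.79, 3.83 and 4.64 in lamina propria pools 1, 2 and 3, against 3.24, 2.78 and 3.01 in the bone marrow pools. The tissues did not overlap, and all 6 values lie below the array medians. Without lamina propria pool 3, Jchain (1.3) and Igha (-1.90) passed in opposite directions, with limma adjusted p of 0.0388 and 0.0381, and both also passed with array weights. In the fit without pool 3, 20.5% of all probe sets were called higher and 11.1% lower. Igha has a marrow mean of 8.66, a level at which pools 1 and 2 were shifted downward as a whole. The part of that shift in its difference was not tested.

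The sorted cells carried B lineage markers in both tissues. The 5 measured markers Cd79a, Cd79b, Ebf1, Pax5 and Cd24a had mean log2 values of 9.30 to 9.90 in the lamina propria arrays and 9.31 to 10.11 in the marrow arrays. The 6 T cell markers averaged 4.85 to 5.34 in lamina propria and 4.66 to 4.74 in bone marrow, with Cd3d, Cd3g and Cd4 below the median of every array. Cd3e had 6.24 to 6.51 in lamina propria and 5.54 to 5.84 in bone marrow, and Cd8a 5.4 to 6.04 and 5.09 to 5.2. All 6 had a positive difference and 4 lay higher without overlap, against 67.3% and 14.3% of all probe sets. The 8 epithelial markers averaged 4.98 to 5.43 and 4.74 to 4.77, with 5 of them below every array's median. Krt8 had 7.32 to 7.85 in lamina propria and 6.93 to 7.34 in bone marrow, and Cdx1 6.96 to 7.47 and 6.4 to 6.59. All 8 had a positive difference and 3 lay higher without overlap. These shares are over probe sets of all levels. Probe sets at marrow means of 4 to 6 had median differences of 0.40 to 0.52 in lamina propria pools 1 and 2. In pool 3 they had -0.02 to 0.00. By pool, the medians were 0.60, 0.69 and 0.15 for the T cell markers and 0.61, 0.31 and 0.18 for the epithelial ones. The part of the shift by level in these counts was not tested. The 6 granulocyte markers averaged 4.88 to 5.44 in lamina propria and 5.05 to 6.55 in bone marrow. Of these, 4 had a negative difference and 2 a positive one. S100a9 lay lower without overlap, at 5.57, 5.63 and 5.30 in lamina propria pools 1, 2 and 3. In the bone marrow pools it had 6.56, 9.26 and 6.68. S100a8 had 4.10, 4.59 and 4.05 in the lamina propria pools and 5.27, 7.48 and 4.08 in the bone marrow pools. The 6 macrophage and monocyte markers averaged 5.48 to 5.92 and 5.45 to 5.90. The part of other cells in the members' values was not tested.

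Genes beside the members on the chromosome did not pass the test. Among up to 3 genes on each side of each member that have a probe set of a single symbol, 18 genes in all, values ran from 2.70 to 8.87 and 2 exceeded 8 on any array. Top3b, a topoisomerase gene that begins 1466 bases from Vpreb1, had 5.76, 7.23 and 7.0 in lamina propria pools 1, 2 and 3, against 7.06, 7.36 and 6.65 in the bone marrow pools, with overlap. Its difference was -0.36 (limma adjusted p = 0.573). The tissues did not overlap for 4 of the 18, with Ypel1 at -1.77 and Ess2, Rtn4r and Gm867 at 0.50, 0.79 and 0.59, against 21.5% of all probe sets, and none passed. Without lamina propria pool 3, Rtn4r and Gm867 passed, at 1.15 and 0.84 (limma adjusted p = 0.016 and 0.0372), and both also with array weights. In the fit without pool 3, 20.5% of all probe sets were called higher and 11.1% lower.

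The genes whose values followed each member most closely were found among 1495 probe sets with 1 symbol and a mean of at least 8 over the 6 arrays, by the same root mean square measure. For Igll1 these were Rplp1, a ribosomal stalk protein (0.205), Cnot1, the scaffold of the deadenylase complex (0.210), and the peroxidase Prdx2 (0.212). Each of the 3 had its lowest value on the array of marrow pool 3, as Igll1 did. For Vpreb1 they were the glycosyltransferase B3gnt2 (0.055), the ribosomal protein Rps6 (0.073) and the ferritin heavy chain Fth1 (0.077), all nearly flat over the arrays. For Vpreb2 they were Klhl9 (0.116), the ribosomal protein Rpl29 (0.125) and Prp2 (0.126), all with their 2 highest values in lamina propria pools 1 and 2. For Vpreb3 the values were larger, at 0.313 for the nucleosome binding protein Hmgn2, 0.329 for the respiratory chain subunit Ndufb11 and 0.335 for Ifi27. Rplp1, Cnot1, Prdx2 and Ndufb11 each have 2 probe sets, Hmgn2 has 5 and Rps6 has 8, of which the closest is given.

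**Figure D5:**
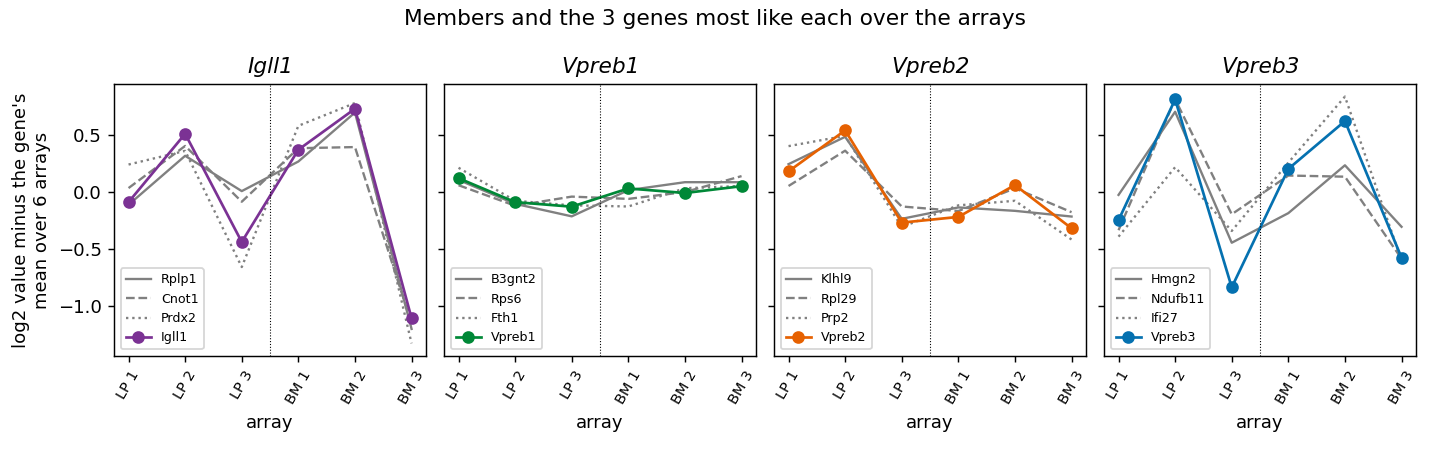
Log2 value of each member and of the 3 genes most like it, each minus its own mean over the 6 arrays (vertical axis), by array (horizontal axis, lamina propria left of the dotted line and bone marrow right of it), with lines only to join the points of a gene. Igll1 and its 3 most alike genes are lowest in bone marrow pool 3, Vpreb1 is nearly flat, and the curves around Vpreb3 lie farther apart, at 0.313 to 0.335.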

How the data were processed

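RNA of 6 pools of sorted cells, 3 per tissue, was amplified from 4.5 to 47 ng, labelled with biotin and measured on whole-transcript arrays, per the labels' protocols. The RNA amount of each pool was not used here. The deposited log2 values come from RMA, for which the submitters' processing notes name Affymetrix Expression Console 1.3.0.187, and were used unchanged. RMA as usually run makes the arrays' distributions alike, so a loss of many transcripts on an array also moves its other values.

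Of 35556 probe sets, 21789 had 1 gene symbol in the platform's table, 1621 several and 12146 were not listed. All 23410 with a symbol entered one two-sided linear model per probe set (limma 3.58.1, R 4.3.3, moderated variances, pool numbers not used), and p-values were adjusted over them by Benjamini-Hochberg, with calls under 0.05. Pools of mice are the replicates, so p-values measure the spread between pools. Where a listed gene has more than 1 probe set, that of highest mean was taken. Ratios were tested with exact permutation tests over arrays.

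The members and lists were chosen with earlier results of these data known. Named were the members, a set of 16 genes of the receptor, its factors and its stage, in each list the genes past the threshold or else the 4 of highest mean, the B lineage markers, the 3 most alike genes per member and the chromosomal neighbours, of which Top3b and those without overlap are given. Alternatives covered a block on pool number, a filter on dim probe sets, 3 scalings, variance trends, weights per array, other sets of probe sets, a stricter threshold and leaving out arrays. The fit was tested on simulated data. Figures were drawn with matplotlib 3.10.9.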

Additional observations from a re-analysis of the deposited data

How the results depend on the processing

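Under all alternatives run, 0 of the 4 members passed, and the lowest adjusted p was 0.092, for Vpreb2 without lamina propria pool 3. The sign of a difference near 0 was not stable. Igll1 was 0.105 with cyclic loess and 0.189 when arrays were centred on the 75th percentile, where Vpreb1 was 0.133 and Vpreb3 0.017. Vpreb1 was 0.012 with array weights, and Vpreb2 -0.113 without lamina propria pools 1 and 2. When 1 array was left out, Igll1 ran from -0.555 to 0.365 and Vpreb3 from -0.625 to 0.2. The ratio differences then ran from -0.509 to 0.438 for Igll1 over Vpreb1, -0.052 to 0.367 for Igll1 over Vpreb3, -0.207 to 0.597 for Vpreb1 over Vpreb3 and -0.032 to 0.647 for Vpreb3 over Dntt. The cause of these changes was not tested.

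Calls over all probe sets, higher and lower, were 4806 and 2593 without lamina propria pool 3 and 0 and 0 without any other single array, 2777 and 2267 with array weights, 4 and 8 when centred, 0 and 3 with an intensity trend and robust variances, and 0 and 1 over all probe sets of the file. Left out 1 array at a time, the genes past the threshold ran from 0 to 6 for the signalling list, 0 to 2 for transcription factors, 0 to 4 for stage genes, 0 to 1 for later B and 0 to 2 for terminal genes, the upper values all without lamina propria pool 3. Array weights, lowest for that pool at 0.16, gave 5, 1, 5, 0 and 2 in the same order, and centring gave 1 stage gene. The list medians that moved by more than the spread between pools were as follows. The median of the signalling list was 0.291 without lamina propria pools 1 and 2. With 1 array left out it ran from -0.727 to -0.028, which was within that spread. That of the transcription factors was 0.010 (quantile), -0.092 (cyclic loess), -0.032 (centred), -0.347 (array weights) and -0.011 without those pools, and -0.340 to -0.052 with 1 array left out. That of the stage genes was -0.333 (centred), -0.688 (array weights) and -0.354 without those pools, and -0.748 to -0.326 with 1 array left out. That of later B genes was 0.387 (quantile), 0.204 (cyclic loess) and 0.497 (centred), and 0.184 to 0.412 with 1 array left out. That of terminal genes was -0.509 with the dim filter, 0.499 (quantile), 0.483 (centred) and -0.110 without those pools, and -0.025 to 0.495 with 1 array left out.

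Other genes also changed sign. Without lamina propria pools 1 and 2, Ighm was 0.580, Cd79b 0.268, Syk 0.519, Btk 0.111, Tcf3 -0.013, Pax5 0.196, Ikzf3 0.902, Pik3ap1 0.072 and Xbp1 -0.110. Centring gave Cd24a 0.024 and Sdc1 0.155, and array weights gave Cd79a -0.328, Tcf3 -0.016, Ccr7 -0.070 and Sdc1 0.006. With 1 array left out, the ranges were -0.564 to 0.387 for Cd79a, -1.066 to 0.415 for Cd79b, -0.230 to 0.286 for Tcf3, -0.639 to 0.054 for Ikzf1, -0.592 to 1.205 for Irf4 and -0.832 to 0.069 for Prkcb. They were -0.271 to 0.009 for Cd24a, -0.003 to 0.512 for Cd72, -0.197 to 0.204 for Ccr7, -0.025 to 0.495 for Xbp1, -0.176 to 0.088 for Sdc1 and -0.643 to 0.093 for Top3b.

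With the pool number as a block, the members' differences were those given, -0.002 for Igll1, -0.057 for Vpreb1, 0.308 for Vpreb2 and -0.174 for Vpreb3, with limma adjusted p of 0.998, 0.881, 0.474 and 0.665, and no call was changed. Same-numbered pools deviated together at r = 0.11, 0.06 and 0.20 across probe sets, so the numbers are not shown to pair the samples. Each member has 1 probe set, so another choice of probe set could not be run. The 3 arrays per tissue leave intervals of 0.44 to 1.18 log2 units on either side, and smaller tissue differences could not be resolved.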
